A study of Mus musculus with 2 samples.

Results

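Alternative activation describes the program that macrophages and dendritic cells take up when interleukin-4 or interleukin-13 binds a receptor containing IL-4Rα and activates the transcription factor STAT6. The 7 genes described here were taken by symbol from the 56941 genes of the count matrices and are named members below. *Chil3* encodes the secreted chitinase-like protein Ym1, and *Retnla* encodes the secreted protein RELMα. *Mgl2* and *Clec10a* encode the galactose-binding C-type lectins CD301b and CD301a. *Ear2* encodes an eosinophil-associated ribonuclease, *Folr2* encodes folate receptor β, and *Il4ra* encodes IL-4Rα itself. All 7 were listed in both libraries, and all 7 had at least 1 unique molecular identifier (UMI, the count of 1 captured transcript molecule) in the monocytes and macrophages of each library. In mouse tissues these genes are used as markers of IL-4-exposed macrophages, but several also mark cells independently of IL-4: *Chil3* is made by monocytes and immature neutrophils, *Mgl2* and *Clec10a* by dendritic cells, and *Folr2* by resident macrophages such as Kupffer cells.

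The libraries came from liver metastases of MC38-LM3b, a liver-metastatic derivative of the mouse colon carcinoma line MC38, formed by intrasplenic injection of tumor cells into C57BL/6 mice aged 6 to 8 weeks and collected 2 weeks later. In the Ctrl group the tumor cells carried a scrambled shRNA (shScramble), and in the KD group they carried an shRNA against SLAMF3 (shSLAMF3). The host cells carried neither shRNA. Lesions of 3 mice were pooled in each group, CD45+ cells were selected, and 1 10x Genomics 3′ library was made per group, so no difference between the groups has a replicate, and every interval below is a 95% interval of counting error only.

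The Ctrl library held 67207234 UMIs in 10416 cells and the KD library 64444715 UMIs in 10943 cells, of which 9814 and 10185 cells passed the filters. Clusters were named by markers, and each name below means cells like that type. Across the tumor-like and fibroblast-like cells, *Ly9*, the mouse gene for SLAMF3, had 12 UMIs in 161 Ctrl cells and 7 UMIs in 96 KD cells, too few to check the knockdown. The 2 libraries shared 27 barcodes. Monocytes and macrophages numbered 4086 cells in Ctrl and 2962 in KD, whose median depths were 5555.5 and 7355 UMIs. They fell into classical monocytes (397 Ctrl and 462 KD cells), inflammatory macrophages (812 and 381), C1q-high macrophages (1435 and 1180), cycling macrophages (510 and 165), *Ltc4s*+ *Pf4*+ macrophages (7 and 403) and a low-UMI macrophage group (925 and 371). The low-UMI group matched 4 genes of a hypoxia macrophage list, *Vegfa*, *Slc2a1*, *Ero1a* and *Mmp14*, but none was among its 10 leading genes, so it is called by its low median of 2725 UMIs in Ctrl and 2521 in KD. Conventional dendritic cells numbered 327 Ctrl and 494 KD cells, mainly type 2 (cDC2, 220 and 350) and type 1 (cDC1, 80 and 106). Kupffer cells (47 and 83) and plasmacytoid dendritic cells (pDC, 82 and 70) were kept apart. Levels are in CPM (UMIs of a gene scaled to a common total over the cell group), Ctrl before KD. Some markers were high in both libraries: *Clec4f* in Kupffer cells (1357, 1408), *Siglech* in pDCs (992, 1192), *Xcr1* in cDC1s (362, 390.3). So were *C1qa* in C1q-high (3267, 3340) and *Il1b* in inflammatory macrophages (7257, 7289). Other listed markers were uneven. *Nos2* (371, 42.3), *Tnf* (509, 382) and *Ptgs2* (1527, 1327) were lower for KD in inflammatory macrophages. *Cxcl1* (150, 563), *Cxcl3* (29.1, 332), *Cxcl2* (4280, 6884), *Ccl4* (1883, 3012), *Il1a* (367, 518) and *Ccl3* (544, 652) were higher there. Among C1q-high markers, *Ccl8* (358, 116) and *Ms4a7* (113, 54.1) were lower for KD. *Mmp12* (175, 432) and *Apoe* (2391, 4750) were higher, and *Gpnmb* was low throughout (6.24, 12.6). In monocytes *Vcan* was higher for KD (585, 1105) and *Ly6c2* lower (944, 605). The cDC2 marker *Cd209a* was at 155 and 184. In the *Ltc4s*+ *Pf4*+ group, *Timd4*, *Lyve1* and *Cd163* were at 0 in the 7 Ctrl cells and between 1.23 and 12 CPM in KD.

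The members' promoters were read to show the sequence that the IL-4 pathway could act on. RefSeq windows were available for 6 of the 7 members, with none for *Clec10a*. The 250 bases before the transcription start on build GRCm38.p6 are given for *Retnla*, *Chil3* and *Mgl2*, 5′ to 3′ on the gene's strand. Capitals mark TTCNNNNGAA, the spacing that STAT6 prefers, or TTCNNNGAA, the spacing other STAT factors prefer; each motif reads the same on both strands, so 1 search covers both.
Retnla, chr16:48842359-48842608, plus strand: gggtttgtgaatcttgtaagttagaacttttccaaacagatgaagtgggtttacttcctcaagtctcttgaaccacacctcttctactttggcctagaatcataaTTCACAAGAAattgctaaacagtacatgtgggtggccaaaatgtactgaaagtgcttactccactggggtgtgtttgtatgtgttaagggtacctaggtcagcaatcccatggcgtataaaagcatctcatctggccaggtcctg
Chil3, chr3:106167565-106167814, minus strand: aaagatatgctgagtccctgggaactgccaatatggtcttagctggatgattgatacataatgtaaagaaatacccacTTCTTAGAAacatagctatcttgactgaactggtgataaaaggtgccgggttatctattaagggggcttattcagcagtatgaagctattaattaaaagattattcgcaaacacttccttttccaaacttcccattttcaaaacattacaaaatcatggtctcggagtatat
Mgl2, chr11:70130107-70130356, plus strand: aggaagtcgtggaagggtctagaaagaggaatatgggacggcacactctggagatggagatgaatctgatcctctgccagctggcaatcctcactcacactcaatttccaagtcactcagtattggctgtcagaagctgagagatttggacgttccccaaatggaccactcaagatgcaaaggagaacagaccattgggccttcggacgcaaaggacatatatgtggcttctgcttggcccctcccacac

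The STAT6 spacing occurred once among the members' 7 windows, in *Retnla*, where TTCACAAGAA began 145 bases before the start. The spacing with 3 bases between the half-sites occurred once, in *Chil3*, where TTCTTAGAA began 172 bases before the start. The windows of *Mgl2*, *Ear2*, *Folr2* and *Il4ra* held neither. Among 32851 windows of the same length, 5.85% held TTCNNNNGAA and 7.02% held TTCNNNGAA. A match describes the letters only.

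Because the reads come from transcript 3′ ends, near-identical family members can share them. Of all runs of 75 bases in the last 500 bases of the GENCODE transcript, 12.2% for *Chil3* were also present in another gene (*Chil4* or a *Chil* pseudogene), 15.7% for *Clec10a* in *Mgl2*, which is its direct neighbor on chromosome 11, and 19.2% for *Ear2* in *Ear1*, *Ear10* or pseudogenes. *Retnla*, *Mgl2*, *Folr2* and *Il4ra* shared none. *Chil4*, *Ear10* and *Ear14* had 0 UMIs in the kept cells of both libraries, and *Ear1* had 1 in Ctrl and 3 in KD. How reads common to paralogs were counted was not given in the sources used here, so *Chil3*, *Clec10a* and *Ear2* may miss part of their reads in both libraries.

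*Chil3* was the member with the clearest order over states. In Ctrl it was highest in classical monocytes, at 1268 UMIs or 576 CPM (95% interval 545 to 609), followed by inflammatory macrophages at 107 CPM, C1q-high macrophages at 24.4 CPM, low-UMI macrophages at 17.9 CPM and cycling macrophages at 4.05 CPM. *Chil3* was also among the leading genes of the monocyte cluster, although the members took no part in the clustering. In KD the same monocytes held 9190 UMIs or 2756 CPM (2700 to 2813), inflammatory macrophages 467 CPM, low-UMI macrophages 66.3 CPM, C1q-high macrophages 61.5 CPM and cycling macrophages 10.4 CPM. The monocytes thus stood above every macrophage state in both libraries, while C1q-high and low-UMI macrophages had overlapping intervals in KD. The log2 ratio of KD to Ctrl was 2.26 (2.17 to 2.34) in monocytes, 2.13 (1.99 to 2.27) in inflammatory macrophages, 1.89 (1.37 to 2.42) in low-UMI macrophages, 1.36 (0.43 to 2.30) in cycling macrophages and 1.33 (1.12 to 1.55) in C1q-high macrophages. Each of these 5 intervals excluded 0, but the cycling macrophages, with 21 UMIs in Ctrl and 22 in KD, did not exceed the KD level in T cells (14.7 CPM). The 403 KD cells of the *Ltc4s*+ *Pf4*+ group held 1947 *Chil3* UMIs, or 600 CPM, and the 7 Ctrl cells of that group held 8.

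**Figure D1:**
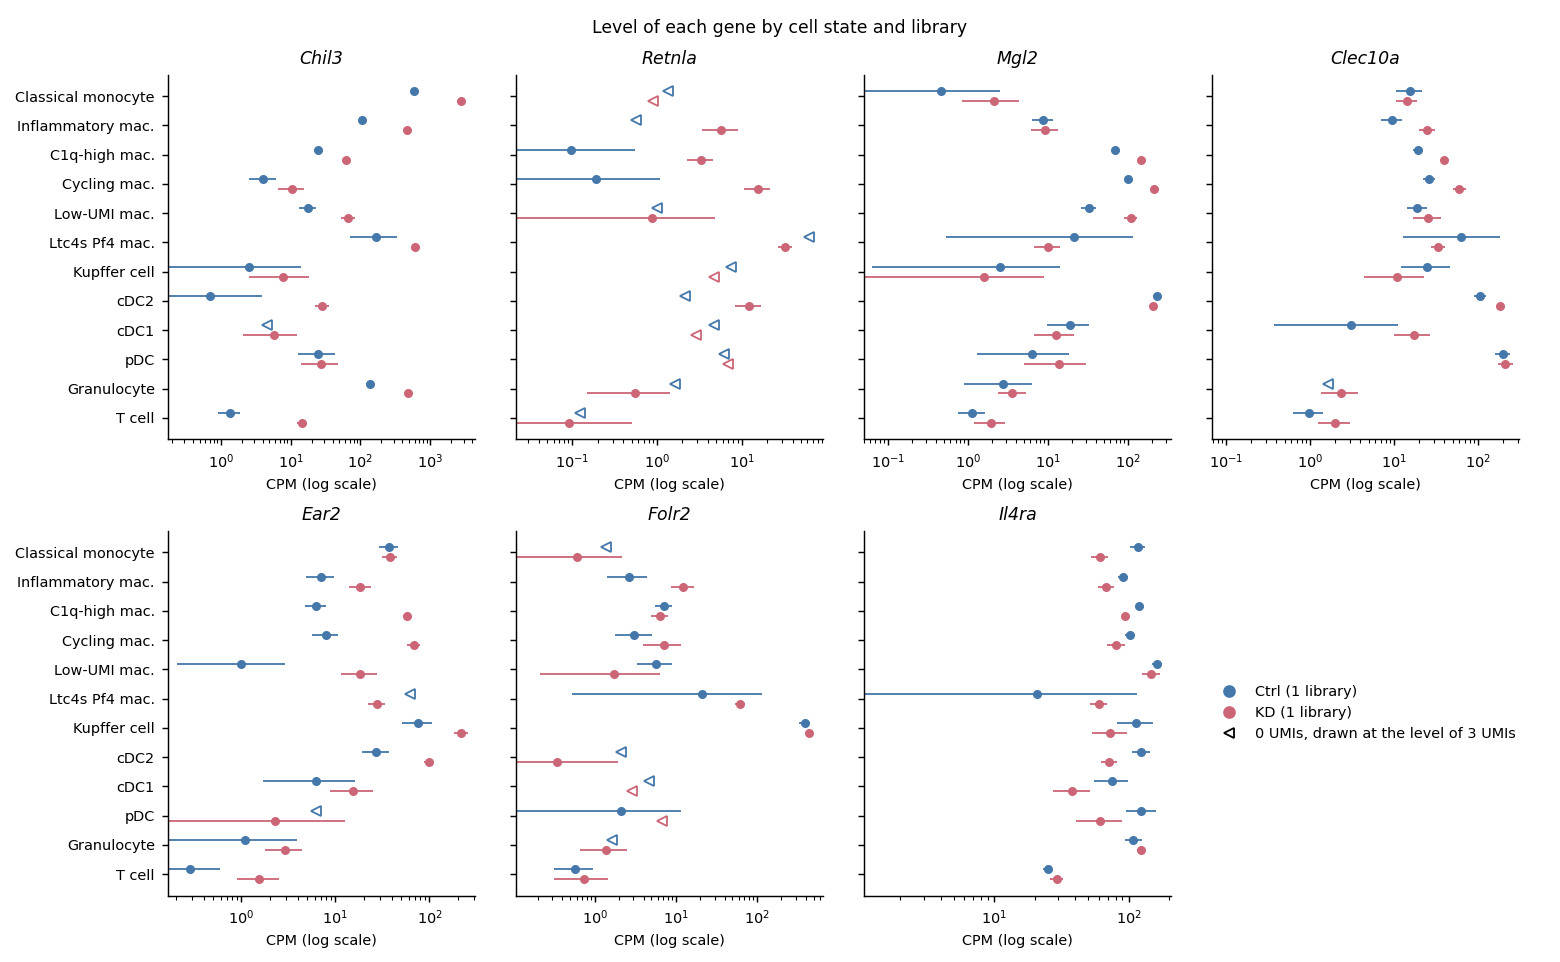
Level of each of the 7 genes (CPM on a log axis, with 95% Poisson intervals) in 12 cell groups, Ctrl in blue and KD in red, with 0 UMIs drawn as an open triangle at the level of 3 UMIs. *Chil3* in KD lies to the right of Ctrl in every monocyte and macrophage state and reaches 2756 CPM in classical monocytes, *Folr2* peaks in Kupffer cells at 389 and 441 CPM, and *Il4ra* in KD lies to the left of Ctrl in most phagocyte groups.

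The difference in *Chil3* involved more positive cells as well as more transcripts per cell. With every cell thinned to 1500 UMIs, and 3 Ctrl and 4 KD monocytes dropped as shallower, 39.8% of 394 Ctrl monocytes and 72.9% of 458 KD monocytes had a *Chil3* UMI, against 57.4% and 82.9% without thinning. The median was 0 UMIs per thinned Ctrl monocyte and 3 per KD monocyte, and 2.54% of Ctrl and 35.8% of KD monocytes held 5 or more. T cells do not make Ym1, and 0.139% of thinned Ctrl and 1.53% of thinned KD T cells had a *Chil3* UMI, at median depths of 7165 and 5809 UMIs, beside 5475 and 6695.5 UMIs in the monocytes. The background in T cells was therefore also higher in KD, at 14.7 against 1.34 CPM. *Chil3* was likewise higher in KD in NK cells (0.625 and 17.3 CPM), B cells (2.47 and 15.3 CPM) and endothelial cells (0.871 and 46.6 CPM). In KD endothelial cells, 162 of 200 UMIs lay in the 10 highest cells. The KD interval of C1q-high macrophages (56.7 to 66.5 CPM) lay above the endothelial one (40.3 to 53.5). That of low-UMI macrophages (52.3 to 83 CPM) overlapped it. The KD levels in Kupffer cells (7.89 CPM) and cycling macrophages (10.4 CPM) did not exceed that T cell level and are read as background, as is the thinned share in KD cDC2s (0.867%), whose 28.4 CPM rested on 82 UMIs in 10 cells, 46 of them in 1 cell. The pDCs had 12 UMIs in each library, in Ctrl all in 1 cell.

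**Figure D2:**
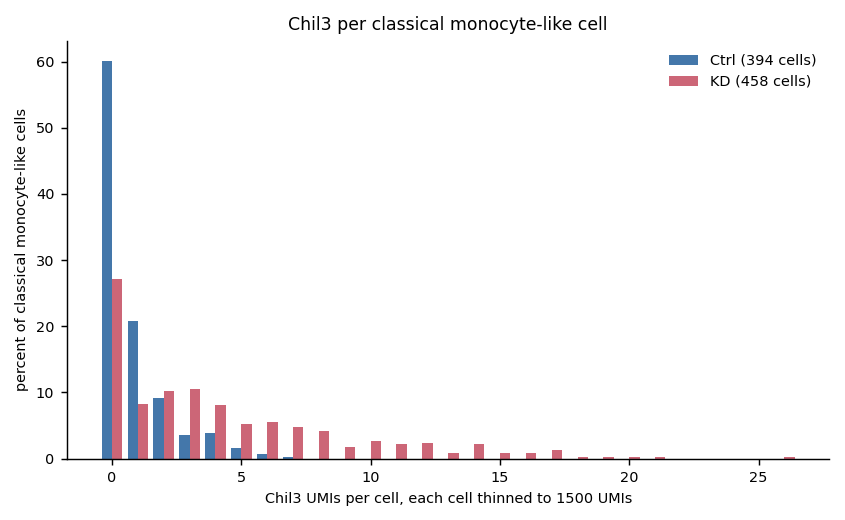
Percent of classical monocyte-like cells (vertical axis) by number of *Chil3* UMIs per cell (horizontal axis) after thinning every cell to 1500 UMIs, Ctrl in blue (394 cells) and KD in red (458 cells). Ctrl cells reach at most 7 UMIs, and KD cells extend to 26.

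Several neutrophil genes, but not all, were higher in KD monocytes together with *Chil3*. The 12-gene granulocyte list summed to 1095 CPM in Ctrl and 4530 CPM in KD classical monocytes, with 11 genes detected in Ctrl and 12 in KD. Of the 15106 KD UMIs in this sum, *S100a8* held 5532 and *S100a9* held 5309. *Csf3r* was lower in KD monocytes, at 73.2 and 57.3 CPM (log2 ratio -0.35, -0.66 to -0.04). *Cxcr2* had 3.18 and 3.30 CPM. In T cells the same list summed to 104 and 872 CPM. Within it *Camp*, which encodes the granule peptide cathelicidin, stood at 2.73 CPM in Ctrl monocytes and at 467 CPM in KD monocytes, and *Ngp*, which encodes neutrophilic granule protein, had 2.73 and 187 CPM. T cells held 1.10 and 1.83 CPM of *Camp* and 1.06 and 2.74 CPM of *Ngp*. Other genes of the list had other patterns. *Lcn2* had 75.9 and 420 CPM in monocytes and 1.10 and 20.6 CPM in T cells. *Ltf* had 1.36 and 15.9 CPM in monocytes but 13.3 and 1.83 CPM in T cells. *Retnlg* had 1.82 and 13.5 CPM in monocytes but 1.95 and 74 CPM in T cells. The *Chil3* log2 ratio was 2.23 (2.12 to 2.34) in the 283 Ctrl and 238 KD monocytes with no UMI of a granule gene, against 2.26 (2.12 to 2.40) in the 114 and 224 monocytes with one. Across all monocytes and macrophages it was 2.34 (2.26 to 2.42) without such cells, against 2.79 (2.73 to 2.86) with all cells. In cycling macrophages it was 0.78 (-0.35 to 1.86) without them, which no longer excluded 0. Granulocytes themselves held 137 CPM of *Chil3* in Ctrl and 484 CPM in KD. Their make-up differed: the cluster led by *Ngp*, *Camp* and *Ltf* held 38 of 778 Ctrl and 323 of 2222 KD granulocytes. The 10 highest granulocytes held 206 of 250 *Chil3* UMIs in Ctrl and 953 of 3510 in KD. *Chil3* was not computed by granulocyte cluster. What part granulocyte RNA or mixed droplets have in the remaining difference was not tested.

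*Retnla* was close to absent in Ctrl and rare in KD. Ctrl monocytes and macrophages held 2 UMIs in 2 cells, and KD monocytes and macrophages held 191 UMIs in 16 cells, which is 0.0489% (0.00593 to 0.177) and 0.54% (0.309 to 0.876) of the cells. The level was 0.0768 CPM in Ctrl and 8.28 CPM in KD, a ratio of 108 with an interval of 29.4 to 896. That interval treats UMIs as independent, which UMIs of the same cell are not, so it is too narrow. A single KD cell carried 68 of the 191 UMIs, the 10 highest cells carried 184, and 11 cells carried 2 or more. By state, the KD UMIs lay in 9 *Ltc4s*+ *Pf4*+ macrophages (106 UMIs, 32.7 CPM), 2 cycling macrophages (33 UMIs), 2 C1q-high macrophages (33 UMIs, 32 of them in 1 cell), 2 inflammatory macrophages (18 UMIs) and 1 low-UMI macrophage (1 UMI). A state mean of *Retnla* thus described 1 or a few cells rather than the state. Classical monocytes, Kupffer cells, cDC1s and pDCs had 0 UMIs in both libraries, which in monocytes allows up to 0.756% of 397 Ctrl and 0.649% of 462 KD cells with a UMI when 3 counts are taken as the limit of a count of 0 (0.925% and 0.795% by Clopper-Pearson). In cDC2s, 4 of 350 KD cells held 35 UMIs and 0 of 220 Ctrl cells held one, and 26 of the 35 UMIs lay in 1 cell. By cells the shares were 1.14% (0.312 to 2.90) in KD and 0% (0 to 1.66) in Ctrl, with overlapping intervals. T cells held 0 UMIs in Ctrl and 1 in KD.

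The KD cells with *Retnla* also carried *Ear2* in 9 of 16 cases, or 56.2% (29.9 to 80.2), against 12.3% (11.2 to 13.6) of the other KD monocytes and macrophages. *Il4ra* was detected in 8 of the 16, *Mgl2* and *Clec10a* in 3 each, *Chil3* in 2 and *Folr2* in 1. The eosinophil list, checked because eosinophils can carry ribonuclease genes of the *Ear* family, summed to 2.23 CPM in Ctrl and 2.21 CPM in KD monocytes and macrophages, with 3 and 5 of 8 genes detected and with *Epx*, *Prg3* and *Ear6* at 0 in both. *Alox15* held 45 of the 58 Ctrl and 10 of the 51 KD UMIs, so the other genes of the list were higher in KD. In conventional dendritic cells the list summed to 1.81 CPM in Ctrl (4 UMIs) and 7.13 CPM in KD (30 UMIs). The peritoneal macrophage list summed to 33.9 and 37.8 CPM.

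*Mgl2* was a gene of C1q-high, cycling and low-UMI macrophages and of cDC2s. In cDC2s it had 326 UMIs or 231 CPM (207 to 258) in Ctrl and 600 UMIs or 207 CPM (191 to 225) in KD, intervals that overlapped. In C1q-high macrophages it had 699 UMIs or 68.1 CPM (63.2 to 73.4) in Ctrl and 1474 UMIs or 146 CPM (139 to 154) in KD, and in cycling macrophages 99.7 CPM (91.3 to 109) and 213 CPM (193 to 233). Low-UMI macrophages had 32.2 CPM (26.1 to 39.2) in Ctrl and 108 CPM (90 to 129) in KD. Classical monocytes had 1 UMI in Ctrl and 7 in KD, Kupffer cells had 1 in each library, and inflammatory macrophages stood at 8.63 and 9.15 CPM. The log2 ratio was 1.10 (0.97 to 1.23) in C1q-high, 1.09 (0.91 to 1.28) in cycling and 1.75 (1.36 to 2.15) in low-UMI macrophages, and 0.08 (-0.64 to 0.79) in inflammatory macrophages. In cDC2s it was -0.16 (-0.35 to 0.04). After thinning, 5.55% (4.40 to 6.89) of 1370 Ctrl and 11.6% (9.85 to 13.6) of 1160 KD C1q-high macrophages had an *Mgl2* UMI, against 16.7% (11.95 to 22.3) of Ctrl and 15.3% (11.7 to 19.6) of KD cDC2s. T cells had 0.139% and 0.399%. The KD to Ctrl difference of *Mgl2* thus lay beyond counting error in 3 macrophage states and within it in cDC2s; the difference between these cell groups was not tested, since each has 1 library.

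*Clec10a*, the neighbor of *Mgl2*, was highest in pDCs, at 198 CPM (160 to 241) in Ctrl and 212 CPM (171 to 260) in KD, and next in cDC2s, at 106 CPM (90 to 125) and 182 CPM (167 to 198). The pDC and cDC2 intervals overlapped in KD but not in Ctrl. C1q-high macrophages had 199 UMIs or 19.4 CPM in Ctrl and 400 UMIs or 39.7 CPM in KD, cycling macrophages 26.2 and 60.1 CPM, inflammatory macrophages 9.38 and 24.9 CPM, and classical monocytes 15.5 and 14.4 CPM. The log2 ratio was 1.03 (0.78 to 1.29) in C1q-high, 1.20 (0.84 to 1.56) in cycling and 1.41 (0.88 to 1.95) in inflammatory macrophages and 0.78 (0.51 to 1.05) in cDC2s. In pDCs it was 0.10 (-0.32 to 0.53) and in monocytes -0.10 (-0.77 to 0.58). Both lectins were thus about as far apart between the libraries in C1q-high macrophages, while in inflammatory macrophages and cDC2s *Clec10a* was higher in KD beyond counting error and *Mgl2* was not. Among thinned KD C1q-high macrophages, 8.89% (4.68 to 15) of the 135 cells with *Mgl2* and 3.90% (2.80 to 5.28) of the 1025 cells without it had *Clec10a*, with overlapping intervals. The shares with and without *Mgl2* were 2.63% and 1.85% in Ctrl C1q-high macrophages. In cDC2s they were 20.8% and 18.1% in KD and 5.56% and 16.1% in Ctrl, also with overlapping intervals.

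*Ear2* was highest in Kupffer cells, at 30 UMIs or 75.4 CPM (50.9 to 108) in the 47 Ctrl cells and 137 UMIs or 216 CPM (182 to 256) in the 83 KD cells. In C1q-high macrophages it had 63 UMIs or 6.14 CPM in Ctrl and 575 UMIs or 57.1 CPM in KD, in cycling macrophages 7.91 and 68.2 CPM, and in cDC2s 38 UMIs or 26.9 CPM and 286 UMIs or 98.9 CPM. In classical monocytes it had 36.8 CPM (29.2 to 45.8) and 37.8 CPM (31.5 to 45), which overlapped. The log2 ratio was 3.22 (2.84 to 3.62) in C1q-high and 3.11 (2.60 to 3.65) in cycling macrophages, 1.88 (1.38 to 2.40) in cDC2s, 1.52 (0.94 to 2.14) in Kupffer cells, 1.40 (0.78 to 2.03) in inflammatory macrophages and 0.04 (-0.38 to 0.46) in monocytes. The order of states therefore differed by library: among the 5 monocyte and macrophage states with at least 50 cells in each, monocytes were the highest in Ctrl, and C1q-high and cycling macrophages stood above monocytes in KD. After thinning, 0.511% (0.206 to 1.05) of Ctrl and 5.52% (4.27 to 6.99) of KD C1q-high macrophages had an *Ear2* UMI. In the same KD cells, *Ear2* was present in 12.6% (7.51 to 19.4) of those with *Mgl2* and 4.59% (3.39 to 6.05) of those without, and in 1 of the 66 with *Chil3*. T cells had 0 of 2886 thinned Ctrl cells and 0.266% of thinned KD cells with an *Ear2* UMI.

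*Folr2* separated Kupffer cells from every other phagocyte. It had 155 UMIs or 389 CPM (331 to 456) in Ctrl and 279 UMIs or 441 CPM (390.4 to 495) in KD Kupffer cells, a log2 ratio of 0.18 (-0.11 to 0.47). C1q-high macrophages had 7.12 CPM (5.58 to 8.95) and 6.35 CPM (4.89 to 8.11), and cycling macrophages 3.09 CPM in Ctrl (16 UMIs in 510 cells), with a log2 ratio of 1.20 (0.08 to 2.31) from 15 UMIs in the 165 KD cells. In inflammatory macrophages it had 14 UMIs or 2.63 CPM in Ctrl and 39 UMIs or 12.3 CPM in KD, a log2 ratio of 2.23 (1.32 to 3.22). The *Ltc4s*+ *Pf4*+ group held 200 of the 322 KD *Folr2* UMIs of the monocytes and macrophages, at 61.7 CPM (53.4 to 70.8), and 1 of the 121 Ctrl UMIs. Without the clusters that came almost entirely from 1 library, which make up that group, the log2 ratio over monocytes and macrophages was 0.41, against 1.59 (1.28 to 1.90) with them. Monocytes, cDC1s, cDC2s and pDCs held between 0 and 2 UMIs in each library.

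*Il4ra*, the receptor chain, was the 1 member lower in KD over the pooled monocytes and macrophages. It was broadly present, at 117 CPM in Ctrl and 60.9 CPM in KD classical monocytes, 120 and 94.8 CPM in C1q-high macrophages, 102 and 80.9 CPM in cycling macrophages, 91 and 67.8 CPM in inflammatory macrophages, and 163 and 147 CPM in low-UMI macrophages. It was 124 and 71.6 CPM in cDC2s, 74.9 and 38.2 CPM in cDC1s, 125 and 61.6 CPM in pDCs and 113 and 72.6 CPM in Kupffer cells. The log2 ratio was -0.95 (-1.22 to -0.68) in monocytes, -0.42 (-0.66 to -0.19) in inflammatory, -0.34 (-0.46 to -0.21) in C1q-high and -0.34 (-0.60 to -0.09) in cycling macrophages, and -0.15 (-0.41 to 0.11) in low-UMI macrophages. It was -0.79 (-1.09 to -0.50) in cDC2s, -0.97 (-1.62 to -0.34) in cDC1s and -1.02 (-1.73 to -0.34) in pDCs. Every phagocyte group with at least 50 cells in each library was thus lower in KD, beyond counting error in all but the low-UMI macrophages. After thinning, 16% (12.5 to 20) of Ctrl and 6.99% (4.83 to 9.72) of KD monocytes had an *Il4ra* UMI. Outside the phagocytes the direction was mixed: the log2 ratio was -0.48 (-0.87 to -0.08) in B cells and -0.32 (-0.50 to -0.14) in endothelial cells, -0.03 (-0.32 to 0.26) in NK cells, 0.18 (-0.04 to 0.41) in granulocytes and 0.22 (0.02 to 0.42) in T cells.

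**Figure D3:**
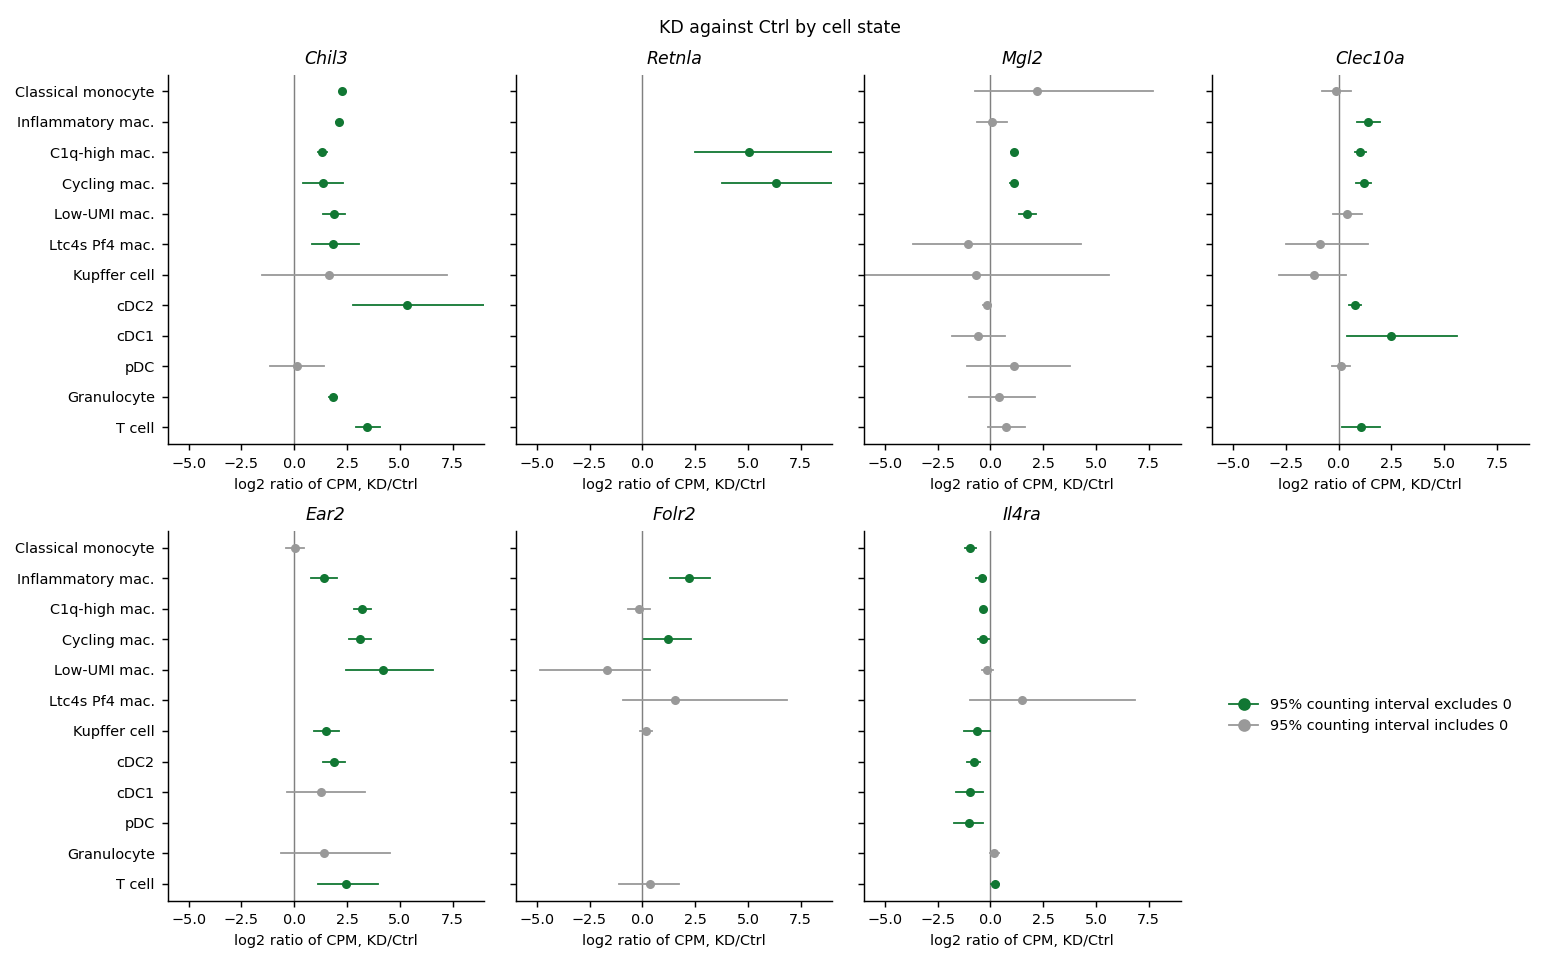
Log2 ratio of CPM, KD over Ctrl (horizontal axis), for each gene in 12 cell groups, with exact 95% counting intervals, green where the interval excludes 0; groups with 0 UMIs in either library are not drawn and bars are cut at the panel edge. The interval excludes 0 on the right for *Chil3* in all monocyte and macrophage states and for *Mgl2* in 3 of them, and on the left for *Il4ra* in all phagocyte groups but the low-UMI macrophages and the *Ltc4s*+ *Pf4*+ macrophages, which have 7 Ctrl cells.

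**Figure D4:**
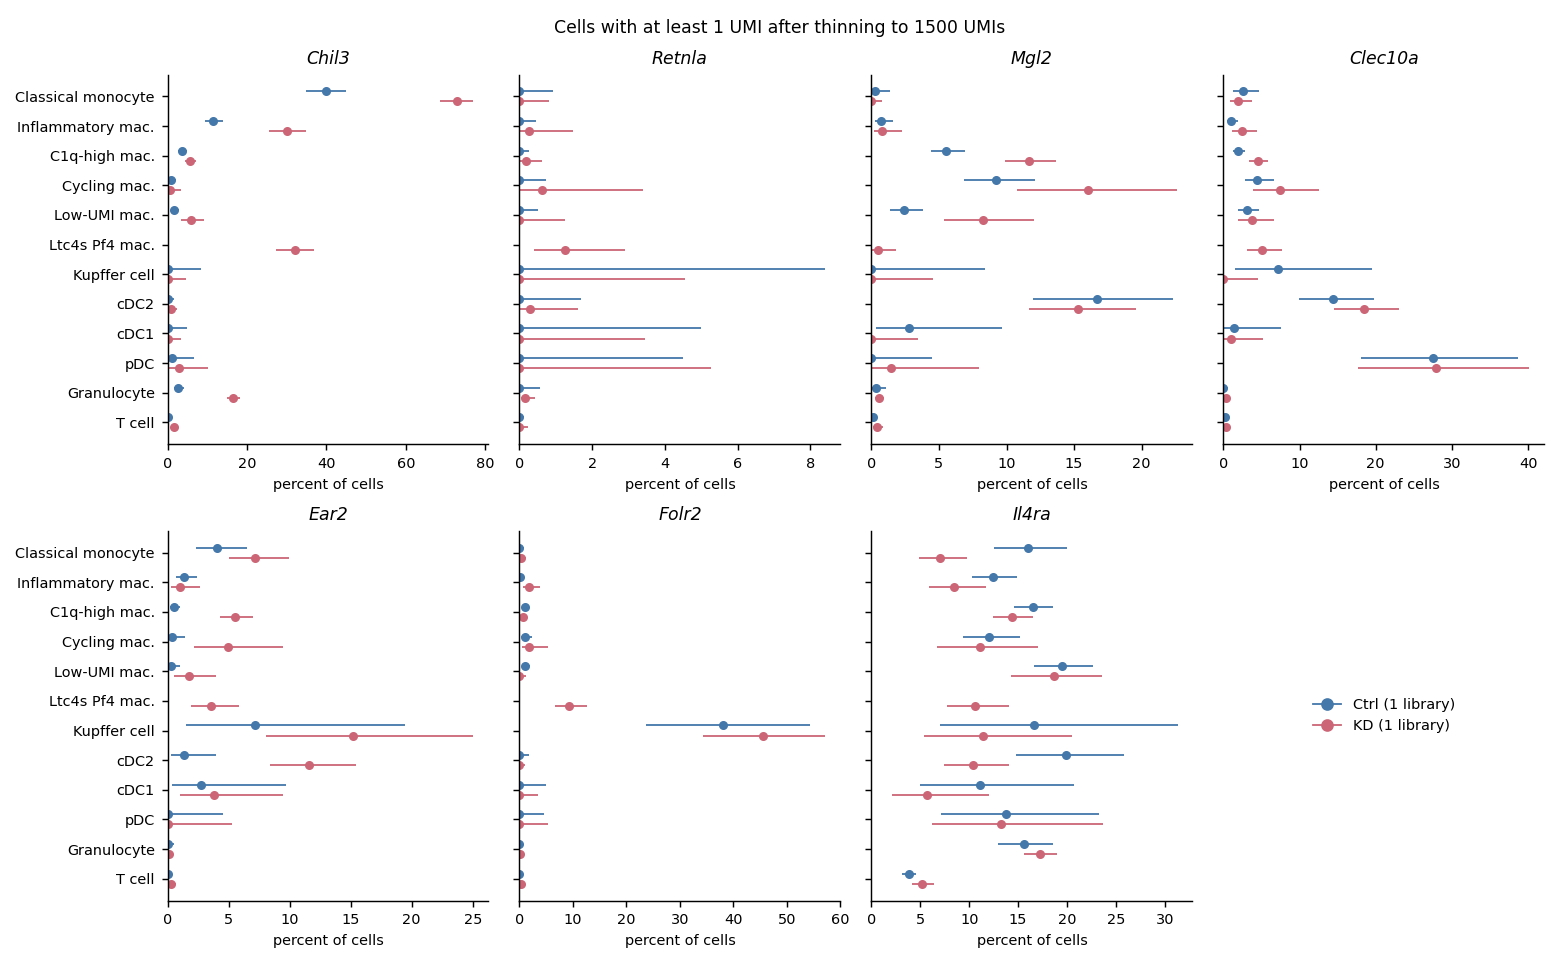
Percent of cells with at least 1 UMI of each gene (horizontal axis) after thinning every cell to 1500 UMIs, with exact 95% binomial intervals, Ctrl in blue and KD in red; groups under 20 cells are not drawn. *Retnla* stays near 0 in every group, *Mgl2* separates the libraries in C1q-high macrophages (5.55% and 11.6%) but not in cDC2s (16.7% and 15.3%), and T cells stay at or under 1.53% for every gene except *Il4ra* (3.81% and 5.19%).

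Over the pooled monocytes and macrophages, 6 members reached 200 UMIs in both libraries together, and *Retnla* with 193 did not. Of the 6, *Chil3*, *Ear2* and *Folr2* were at least 2-fold higher in KD and none was at least 2-fold lower. Among all 9973 genes with that many UMIs, 1.47% were at least 2-fold higher and 1.42% at least 2-fold lower. The pooled log2 ratios were 2.79 (2.73 to 2.86) for *Chil3*, 2.34 (2.13 to 2.56) for *Ear2*, 1.59 (1.28 to 1.90) for *Folr2*, 0.90 (0.73 to 1.07) for *Clec10a*, 0.81 (0.71 to 0.91) for *Mgl2* and -0.48 (-0.56 to -0.39) for *Il4ra*, with a median of 1.24 beside -0.025 over all genes. With each of the 5 states given equal weight they were 2.20 for *Chil3*, 1.76 for *Ear2*, 0.61 for *Folr2*, 1.19 for *Mgl2* and -0.39 for *Il4ra*. That weighting also leaves out the *Ltc4s*+ *Pf4*+ group, and leaving out that group alone gave 1.00 for *Mgl2* and 0.41 for *Folr2*. In C1q-high macrophages alone, 5 members reached 200 UMIs, and *Chil3*, *Mgl2*, *Clec10a* and *Ear2* were at least 2-fold higher, beside 0.931% of 7515 genes higher and 0.692% lower. In classical monocytes 3 members reached it, and *Chil3* alone was at least 2-fold higher, beside 1.31% of 3905 genes higher and 1.74% lower. In conventional dendritic cells 4 reached it, and *Ear2* alone was at least 2-fold higher, at 19.1 CPM in Ctrl and 72 CPM in KD (log2 ratio 1.92, and 1.04 without likely doublets), beside 0.916% of 4366 genes higher and 0.779% lower.

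The rest of the IL-4 and IL-13 pathway did not share 1 direction. Of 69 pathway genes other than the members, 48 had at least 200 UMIs in monocytes and macrophages, 4 were at least 2-fold higher in KD and 4 at least 2-fold lower, with a median log2 ratio of -0.0746. Among all 9973 genes with that many UMIs, 1.47% were at least 2-fold higher and 1.42% at least 2-fold lower. The median log2 ratio over all those genes was -0.025. The higher pathway genes were *Ccl24*, an eosinophil-attracting chemokine (16.2 and 146 CPM, log2 ratio 3.17, 3.03 to 3.32), *Fn1*, fibronectin (161 and 593 CPM, 1.88) and also a marker by which monocytes were named, *Arg1*, arginase 1 (195 and 524 CPM, 1.42), and *Mrc1*, the mannose receptor CD206 (59.1 and 156 CPM, 1.40). *Ccl24*, *Fn1* and *Arg1* were among the leading genes of *Ltc4s*+ *Pf4*+ sub-clusters. The pooled ratios include that group, with 7 Ctrl and 403 KD cells, and were not computed without it. The lower genes were *Ch25h*, cholesterol 25-hydroxylase (20.7 and 4.16 CPM, -2.32), *Socs1*, a cytokine signaling inhibitor (102 and 34 CPM, -1.58), *Tgm2*, transglutaminase 2 (531 and 225 CPM, -1.24), and *Flt1*, a VEGF receptor (54.5 and 24.2 CPM, -1.17). By role, 0 of the 10 transcription factors with enough UMIs and 1 of the 12 signaling genes passed 2-fold, against 5 of 13 enzymes and secreted proteins and 2 of 11 surface receptors. *Stat6* itself stood at 42.4 CPM in Ctrl and at 42.8 CPM in KD, a log2 ratio of 0.01 (-0.11 to 0.14).

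**Figure D5:**
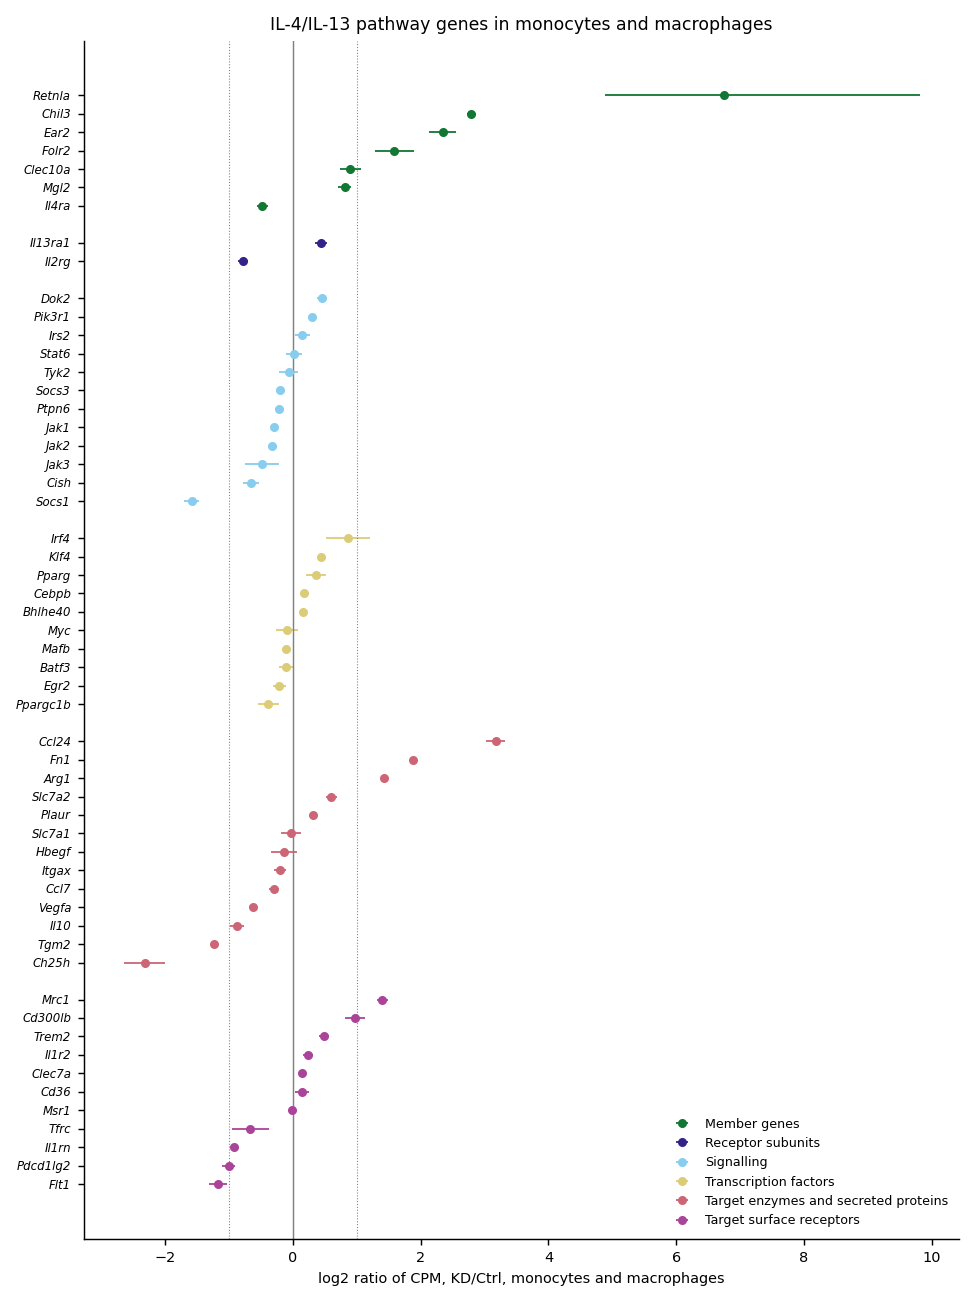
Log2 ratio of CPM, KD over Ctrl (horizontal axis), in pooled monocytes and macrophages for the 7 members and for the pathway genes with at least 200 UMIs, grouped by role, with 95% counting intervals and dotted lines at 2-fold. *Retnla* has the widest interval, *Stat6* sits at 0, and *Ccl24* and *Ch25h* mark the ends of the enzymes and secreted proteins.

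The partner chains of IL-4Rα differed from it and from each other. *Il2rg*, the common γ chain of the type I receptor, stood at 129 CPM in Ctrl and at 75 CPM in KD monocytes and macrophages, a log2 ratio of -0.78 (-0.86 to -0.70). *Il13ra1*, the second chain of the type II receptor, had 64.1 and 86.9 CPM, a ratio of 0.44 (0.35 to 0.53), and *Il13ra2*, a decoy receptor, had 2 UMIs in Ctrl and 0 in KD. The ligands were rare. *Il4* had 42 UMIs in 5 of 432 Ctrl and 140 UMIs in 49 of 736 KD NK-named cells, of which 5 and 47 also had a UMI of a *Cd3* gene, beside 62.1% and 75% of the NK-named cells without *Il4*. *Il4* was further found in 2 of 2918 Ctrl and 9 of 1519 KD T cells and in 1 of 466 Ctrl and 4 of 259 KD cells of unnamed clusters. *Il13* had 3 UMIs in Ctrl and 23 in KD T cells, and 15 UMIs in 2 Ctrl granulocytes. Monocytes and macrophages held 0 *Il4* UMIs in Ctrl and 3 in KD, and no *Il13*.

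The genes whose levels ran most like a member's were taken over the 18 pairs of phagocyte state and library with at least 50 cells, as Pearson correlations of log2(CPM + 1). They share libraries, depth and cell ancestry and are given as a description. *Chil3* was closest to *Hp* (haptoglobin, 0.97), *Thbs1* (thrombospondin 1, 0.91) and *Tmem38b* (0.90). *Clec10a* was closest to *Irf4*, a transcription factor of type 2 dendritic cells (0.96), *Ddr1* (0.91) and *Cfap68* (0.88). *Mgl2* was closest to *Kctd17* (0.88), *Tnfsf8* (0.87) and *Klrb1b* (0.86), and *Folr2* to *Leprot* (0.94), *Clptm1* (0.89) and *Acly* (0.88). *Ear2* was closest to *Zpr1* (0.82), *Jup* (0.80) and *Gsto1* (0.79), *Il4ra* to *Gm12216* (0.84), *Txk* (0.82) and *Suco* (0.80), and *Retnla*, from few cells, to *Plxnd1* (0.77), *Timp1* (0.77) and *Ltc4s* (0.72). Between members the correlations lay between -0.48 (*Chil3* with *Mgl2*) and 0.44 (*Ear2* with *Retnla*), so no member stood among another's 3 closest genes.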

How the data were processed

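CD45+ cells of liver metastases were profiled with 10x Genomics 3′ chemistry, with 1 library per group (Ctrl and KD). Per the labels, the submitters' processing notes name Cell Ranger 7.1.0, Seurat 5.1.0, R 4.4.1 and GRCm39. The authors deposited UMI counts per gene and cell, not normalized, in filtered matrices. The members and gene lists were chosen with earlier results of these data known. Cells under 200 or over 6000 genes, over 30000 UMIs or over 10% mitochondrial UMIs were dropped. Both libraries were clustered together with Seurat 5.3.0 in R 4.3.3 (2000 variable genes without the members and pathway genes, 20 principal components, resolution 0.5), and mononuclear phagocytes were clustered again. A cluster was named by at least 3 markers, unless its 10 leading genes held more markers of another type. Phagocyte sub-clusters that took the name of B cells (14 Ctrl and 45 KD cells), granulocytes (44 and 131) or T cells (38 and 51) were left out. Doublets were marked with Scrublet (Scanpy 1.11.5) but kept in the main values, since removing them was an alternative. UMIs were summed per state and library and scaled to a common total as CPM, with exact Poisson intervals, ratios with exact conditional binomial intervals, and shares with Clopper-Pearson intervals (95%), all covering counting error only. No test was made with 1 library per group. A gene was called at 2-fold with at least 200 UMIs in both libraries together. The text names all members, pathway genes past 2-fold, ligands, receptor chains, some of the paralogs and the closest genes by correlation. *Stat6* and individual granulocyte genes were added after their values were seen. RefSeq windows on GRCm38.p6 and GENCODE M21 transcripts gave sequences only, since the reference is not of the authors' build. The interval script was tested on simulated data. Alternatives were a stricter filter, doublet removal, resolution 1.0, RPCA, members kept among the variable genes, classes from single cells, thinning, TMM (edgeR 4.0.16), subtraction of the T cell level, no UMI minimum, a 1.5-fold threshold, and leaving out one-library sub-clusters or cells with granule genes.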

Additional observations from a re-analysis of the deposited data

Results flagged for a closer look

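*Chil3* was also present in the 602 Ctrl and 758 KD cells that the cell filters left out of every comparison, with 20 UMIs in Ctrl and 422 in KD. Its level there was 6.78 CPM in Ctrl and 154 CPM in KD, above the control library. The cell types of these cells were not determined.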

How the results depend on the processing

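The direction of KD against Ctrl held for all 7 members in monocytes and macrophages under each alternative that gave a value. The log2 ratio ranged from 2.20 (equal weight to each state) to 3.17 (classes from single cells) for *Chil3*, from 5.80 to 6.997 for *Retnla*, from 0.72 to 1.19 for *Mgl2*, from 0.76 to 1.01 for *Clec10a*, from 1.76 to 3.15 for *Ear2*, from 0.41 (without one-library sub-clusters) to 1.72 for *Folr2* and from -0.75 (T cell level subtracted) to -0.38 for *Il4ra*. The number of members at least 2-fold higher there was 3, and 5 both with a 1.5-fold threshold and without cells holding a granule gene UMI, where *Mgl2* (1.02) and *Clec10a* (1.01) passed too. It was 4 with members called at any UMI count, with the stricter cell filter, at resolution 1.0 and with members kept among the variable genes, and 2 after thinning to 1500 UMIs. In conventional dendritic cells 1 member was at least 2-fold higher; this became 4 with members called at any UMI count, 2 with a 1.5-fold threshold, 3 with classes from single cells, 0 after thinning, and 2 without the 10 highest cells per library. None was at least 2-fold lower there, and 1 was with a 1.5-fold threshold or after subtracting the T cell level. *Ear2* there was 1.92, and ranged from 1.04 without likely doublets and 1.21 with members kept among the variable genes to 2.90 without the 10 highest cells and 3.03 after thinning, where it was under 200 UMIs; the other causes were not tested. *Mgl2* in dendritic cells ranged from -0.18 to 0.27. Equal state weights, leaving out the highest cells and leaving out shared barcodes were chosen after seeing the data. No paired analysis was possible because each group has 1 library and no test was made. With 1 pooled library per group, tumor genotype, animal and library cannot be told apart.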

Other observations

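Under RPCA integration a sub-cluster of 125 Ctrl and 331 KD cells took the patrolling monocyte name, with *Ltc4s* and *Pf4* among its leading genes. It held *Ear2* at 71.9 CPM in Ctrl and 32.2 CPM in KD, the opposite direction to C1q-high and cycling macrophages, and *Chil3* at 106 and 577 CPM. *Il4ra* there was 124 and 61.7 CPM, *Folr2* was 10.8 and 46 CPM, and *Retnla* had 0 and 32 UMIs. In the clustering used above, without integration, no sub-cluster took the name. There the *Ltc4s*+ *Pf4*+ macrophages numbered 7 Ctrl and 403 KD cells. Whether they are the same cells, and so whether that uneven split depends on not integrating, was not tested.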
